A study of Mus musculus with 6 samples.

Results

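Mitochondrial fatty-acid β-oxidation was examined at the transcript level through 10 genes in bone marrow-derived macrophages (BMDMs) with and without ATP citrate lyase (Acly). The genes were *Cpt1a*, *Cpt2*, *Acadm*, *Acadl*, *Acadvl*, *Hadha*, *Hadhb*, *Etfdh*, *Eci1* and *Decr1*, and all 10 were found by symbol among the 24562 genes of the count table, each read from its RefSeq transcript with the highest total count. All 10 also passed the filter on low counts that left 11470 genes for testing. *Cpt1a*, which encodes the carnitine palmitoyltransferase that admits long-chain fatty acids to the mitochondrion, was lower in AclyM-KO than in control macrophages, with a fall of 21.6% (95% interval -29.0% to -13.3%). The other 9 genes, which encode the inner carnitine palmitoyltransferase and enzymes of the oxidation itself, did not pass the threshold, with log2 fold changes (log2FC) between -0.25 and 0.15.

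Long-chain fatty acids enter mitochondria as carnitine esters. CPT1 on the outer membrane makes the ester from acyl-CoA, a translocase carries it across the inner membrane, and CPT2 on the inner membrane returns it to acyl-CoA. The acyl chain is then shortened in a repeating spiral of dehydrogenation, hydration, a further dehydrogenation and thiolysis, and each turn releases acetyl-CoA. Acly belongs to the opposing route, since it makes cytosolic acetyl-CoA from citrate. That acetyl-CoA can be carboxylated to malonyl-CoA, which is a building block of fatty acids and an inhibitor of CPT1. In macrophages, fatty-acid oxidation has long been studied in connection with polarization and with the handling of lipid taken up from lipoproteins.

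The study compared unstimulated BMDMs of control mice and of mice with a myeloid deletion of *Acly*. Control mice carried loxP-flanked *Acly* alleles (Acly fl/fl) without Cre and are labelled WT, and AclyM-KO mice carried the same alleles together with Cre at *Lyz2* (LysMcre). Both groups were of C57Bl/6J background. The series describes the mice as female, whereas the study's reporting summary names young adult mice of both sexes as the source of bone marrow for its in vitro work. Bone marrow cells were differentiated in the presence of L929-conditioned medium, and the 3 control and 3 AclyM-KO libraries all came from naive cells. *Lyz2* drives Cre in monocytes and neutrophils as well as in macrophages. The study's legends call BMDM replicates technical, drawn from 3 pooled mice, and p-values here measure the spread between libraries and not between mice.

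The libraries held between 19327459 and 23582992 counts in control and between 19797218 and 44507233 in AclyM-KO, where replicate 2 was the deepest. Levels are given as CPM, the read count scaled to depth with TMM normalization. *Acly* was counted 2424, 3117 and 2614 times in control against 1072, 2617 and 1127 times in AclyM-KO libraries. Scaled to depth, it was at 229.7 ± 8.18 CPM in control against 96.8 ± 3.06 CPM in AclyM-KO libraries (SD, n = 3 each). *Lyz2*, the site of the Cre, was also lower in AclyM-KO (log2FC -1.05, adjusted p = 2.21e-05). Of 8 macrophage markers, 3 were lower and 0 higher, against 5.65% and 6.7% of all genes tested, and 4 were lower and 1 higher with limma-voom or without AclyM-KO replicate 2. Their summed level was 21672 to 22659 CPM in control and 12656 to 15295 CPM in AclyM-KO. *Lyz2* alone made up most of that fall, with means of 13305 ± 460 CPM (control) and 6437 ± 731 CPM (AclyM-KO; SD, n = 3 each). The sum thus mainly followed the gene that carries the Cre and not the markers as a set. Beside *Lyz2*, *Mertk* (-0.67) and *Csf1r* (-0.48) fell, the latter not past the threshold without any one control library or AclyM-KO replicate 3, and *Adgre1*, *Cd68*, *Itgam*, *Fcgr1* and *Cd14* did not pass the threshold. All 10 proliferation markers were higher in AclyM-KO, against 6.7% of all genes tested. Their summed levels were 420.5 to 492.7 CPM in control and 607.3 to 856.6 CPM in AclyM-KO, and AclyM-KO replicate 2 was the highest. Of them, 5 passed without control replicate 1, 7 without control replicate 2 and 9 without control replicate 3 or AclyM-KO replicate 3. Neutrophil markers summed to 28.7 to 32.1 CPM in control and 29.4 to 31.2 CPM in AclyM-KO, with *Ly6g* at 0 in 5 of the 6 libraries. Summed markers of dendritic cells, lymphocytes, erythroid and mast cells, and fibroblasts were each at most 1.57 CPM in any library. The part of these markers in the results below was not tested, and in RNA from whole cultures fewer cells that express a gene and less RNA per cell cannot be told apart.

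Start regions are shown for *Cpt1a*, the gene of the 10 that fell, for *Etfa*, which rose in the same pathway and is described later, and for *Hadha* and *Hadhb*, which share theirs. The sequences are those of RefSeq on GRCm38.p6, the assembly that mm10 denotes. Capitals mark a CCAAT box or a GC box (GGGCGG) on either strand. *Cpt1a* (NM_013495) has 19 exons on the plus strand of chromosome 19 and spans 3323285 to 3385733 in GENCODE. The 250 bases before the start that the RefSeq promoter table gives (chr19:3323051-3323300, plus strand) hold a CCAAT box and GC boxes. The last of these bases lie within the GENCODE transcript, and the RefSeq gene span begins further upstream, at 3322326.
Cpt1a: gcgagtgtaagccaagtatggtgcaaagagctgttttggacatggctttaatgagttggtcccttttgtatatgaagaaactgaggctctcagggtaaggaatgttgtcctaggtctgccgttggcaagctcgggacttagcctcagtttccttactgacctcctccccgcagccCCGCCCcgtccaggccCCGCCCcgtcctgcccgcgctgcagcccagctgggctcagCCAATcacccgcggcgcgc
*Etfa* (NM_145615) has 12 exons on the minus strand of chromosome 9, from 55454508 to 55512243. The 250 bases before its start (chr9:55512244-55512493, minus strand) hold a CCAAT box on each strand.
Etfa: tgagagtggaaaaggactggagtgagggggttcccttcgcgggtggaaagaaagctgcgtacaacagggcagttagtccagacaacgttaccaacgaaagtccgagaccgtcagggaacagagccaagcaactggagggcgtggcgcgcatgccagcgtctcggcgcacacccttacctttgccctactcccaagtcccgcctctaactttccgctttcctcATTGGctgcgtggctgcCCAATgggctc
*Hadha* and *Hadhb* lie head to head on chromosome 5, with 272 bases between their RefSeq starts at 30154980 (minus strand) and 30155253 (plus strand). The stretch between the outermost starts in GENCODE (chr5:30155163-30155247, plus strand) holds GC boxes.
Hadha-Hadhb: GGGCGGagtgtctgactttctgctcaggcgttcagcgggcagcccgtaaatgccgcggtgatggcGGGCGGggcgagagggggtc
Among the 10 genes, 9 had a start region in the RefSeq promoter table. Of 32851 start regions of 250 bases, searched on both strands, 32.7% held a GC box (GGGCGG), as did those of 6 of the 9 genes (*Acadl*, *Cpt2*, *Hadha*, *Hadhb*, *Eci1* and *Cpt1a*). A CCAAT box was in 33.8% of all start regions and in those of *Etfdh* and *Cpt1a*. The direct repeat bound by PPAR:RXR (AGGTCA, any base, AGGTCA) was in 0.0335% of all start regions and in 0 of the 9. The extended element of ERR (AAGGTCA) was in 4.08% of all regions and in that of *Acadm*. The palindrome of NRF1 (GCGCA, any base, GCGC) was in 3.74% of all regions and in that of *Etfdh*, and a sterol regulatory element (TCAC, any base, CCAC) was in 1.05% of all regions and in 0 of the 9. These matches describe letters in the sequence and not binding.

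To ask whether loss of Acly changed the machinery for fatty-acid oxidation, each gene was compared between the groups by edgeR's quasi-likelihood test, adjusted over all 11470 genes tested. Of the 10 genes, 1 was lower, 0 were higher and 9 did not pass the adjusted p of 0.05 used as threshold. Over all genes tested, 12.3% passed, with 5.65% lower and 6.7% higher in AclyM-KO, so 1 call among 10 was near the background. At an unadjusted p under 0.05, also 1 of the 10 genes passed, against 27.3% of all genes tested. Of the 10 genes, 0 were higher under any of 15 processing alternatives, DESeq2 and limma-voom included. The log2FC values of the 10 genes had a median of -0.024, with 4 above 0 and 6 below, and the median over all genes tested was 2.6e-04. Their absolute values had a median of 0.050, against 0.15 over all genes tested, for which the quartiles were 0.068 and 0.30. The genes compared were not matched for expression level. In 1 of the 10 genes the groups did not overlap in CPM, with AclyM-KO below, and this was so for 32.8% of all genes tested, with AclyM-KO below in 16.6%.

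**Figure D1:**
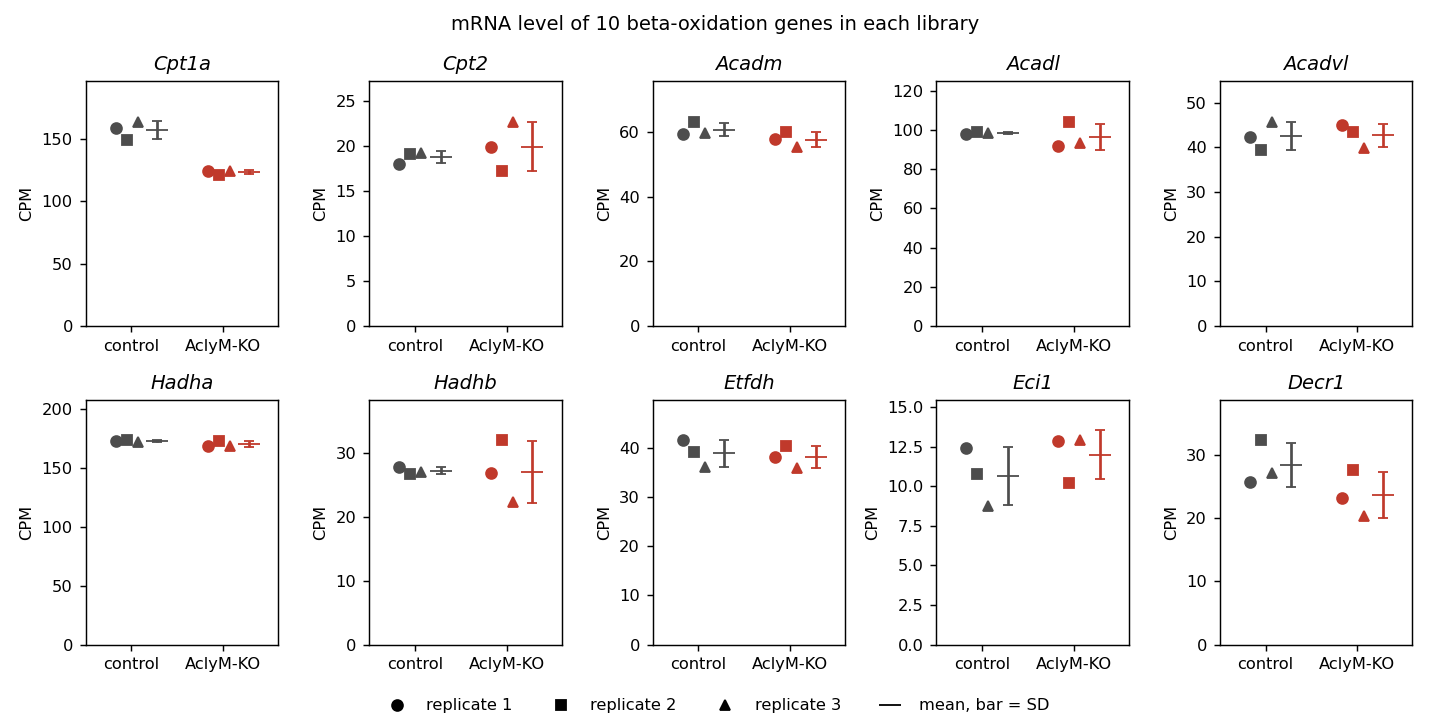
Level of each of the 10 β-oxidation genes in each library, in TMM-normalized CPM on axes that start at 0. Symbols are libraries, with a shape for each replicate number, in control (grey) and AclyM-KO (red), and the line beside them is the group mean with a bar of 1 SD either way. The AclyM-KO libraries of *Cpt1a* sit at 121 to 124 CPM, below all control libraries at 149 to 164 CPM, and the groups overlap in the other 9 genes.

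*Cpt1a* encodes the liver-type isoform of CPT1, the enzyme generally regarded as rate limiting for the oxidation of long-chain fatty acids. Control libraries held 1746, 1994 and 1814 *Cpt1a* counts, and AclyM-KO libraries held 1428, 3210 and 1424. Normalized for depth, *Cpt1a* was at 159, 149 and 164 CPM in control and at 124, 121 and 124 CPM in AclyM-KO libraries. Every AclyM-KO library was below every control library, and the AclyM-KO libraries lay closer together than the control libraries. The group means were 157.2 ± 7.45 CPM and 123.3 ± 1.73 CPM (SD, n = 3 each), and the log2FC was -0.35 with a standard error (SE) of 0.066 and a 95% interval of -0.49 to -0.21 (adjusted p = 0.00571). The fall passed the threshold under all 15 processing alternatives, with log2FC values from -0.39 to -0.32 and adjusted p from 3.9e-04 to 0.0494. Without AclyM-KO replicate 2, the deepest library, it was -0.34 (adjusted p = 3.9e-04). *Cpt1a* has 1 RefSeq transcript in the table, and no exon of another gene overlaps its exons.

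CPT1 also exists as a muscle-type and a brain-type isoform, encoded by *Cpt1b* and *Cpt1c*. Both were removed by the filter on low counts. *Cpt1b* lay between 0.273 and 0.756 CPM and *Cpt1c* between 0 and 0.793 CPM, while a count of 0 allowed a level of up to 0.116 to 0.27 CPM per library (3 counts, counting error only). *Cpt1a* was thus the CPT1 transcript with by far the most counts in both groups. *Cpt2*, the inner-membrane partner of CPT1, was at 18.0, 19.1 and 19.2 CPM in control and at 19.8, 17.3 and 22.7 CPM in AclyM-KO libraries. The AclyM-KO libraries of *Cpt2* lay on both sides of the control libraries, with a log2FC of 0.07 (95% interval -0.19 to 0.34, adjusted p = 0.746). The ratio of *Cpt1a* to *Cpt2* counts was 8.38 ± 0.512 in control and 6.25 ± 0.774 in AclyM-KO libraries (SD, n = 3 each), without overlap between the groups (two-sided exact permutation test, p = 0.1, the smallest that 3 libraries against 3 allow). *Slc25a20*, the carnitine-acylcarnitine translocase between them, was at 27.6, 29.7 and 30.2 CPM in control and at 24.5, 24.1 and 23.8 CPM in AclyM-KO libraries. Its groups did not overlap, but with a log2FC of -0.27 (95% interval -0.47 to -0.075) the adjusted p was 0.0713. It passed the threshold in 2 of 15 alternatives, with limma-voom (adjusted p = 0.0385) and without AclyM-KO replicate 2 (adjusted p = 0.0481). *Mlycd*, whose product degrades malonyl-CoA, had a log2FC of 0.11 (adjusted p = 0.580), and *Acacb*, which encodes the acetyl-CoA carboxylase associated with mitochondria, was at 0.261 to 0.673 CPM and was not tested.

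The acyl-CoA dehydrogenases catalyse the opening step of each turn and differ in the chain length they prefer. *Acadvl* encodes the very-long-chain enzyme at the inner membrane, *Acadl* the long-chain enzyme and *Acadm* the medium-chain enzyme of the matrix. *Acadl* was at 97.9, 99.2 and 98.2 CPM in control and at 92.1, 104.2 and 93.3 CPM in AclyM-KO libraries. *Acadm* was at 59.4, 63.1 and 59.5 CPM in control and at 57.6, 59.8 and 55.3 CPM in AclyM-KO libraries. *Acadvl* was at 42.4, 39.5 and 45.7 CPM in control and at 45.01, 43.4 and 40.0 CPM in AclyM-KO libraries. In each of these enzymes the groups overlapped, and in *Acadl* the AclyM-KO libraries lay on both sides of all control libraries. The 95% intervals of the log2FC values were -0.18 to 0.13 for *Acadl*, -0.23 to 0.088 for *Acadm* and -0.18 to 0.20 for *Acadvl*, and the adjusted p were 0.860, 0.572 and 0.953. A fall of the size estimated for *Cpt1a* lay outside all of these intervals. Exons of *Acadvl* overlap those of *Dvl2* on the opposite strand, and whether the counting, run with HOMER2's default settings, kept the strands apart was not tested.

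The mitochondrial trifunctional protein carries out the remaining steps on long chains. *Hadha* encodes its α subunit with hydratase and 3-hydroxyacyl-CoA dehydrogenase activity, and *Hadhb* its β subunit with thiolase activity. *Hadha* had the highest CPM of the 10 genes, at 173, 174 and 173 CPM in control and at 169, 173 and 169 CPM in AclyM-KO libraries. Its values were the tightest of the 10, with an SE of 0.061 on the log2 scale, a log2FC of -0.02 and a 95% interval of -0.16 to 0.11 (adjusted p = 0.850). *Hadhb* was at 27.8, 26.8 and 27.1 CPM in control and at 26.8, 32.0 and 22.3 CPM in AclyM-KO libraries. The AclyM-KO libraries of *Hadhb* spread more widely than the controls, and its log2FC of 0.0065 had a 95% interval of -0.26 to 0.28 (adjusted p = 0.981). *Hadhb* has 3 RefSeq transcripts with nearly equal counts in the table, of which the one with the highest total is given here. The ratio of *Hadha* to *Hadhb* in CPM per kb of transcript was 3.24 ± 0.0673 in control and 3.27 ± 0.545 in AclyM-KO libraries (SD, n = 3 each; two-sided exact permutation test, p = 0.9). Exons of *Hadha* overlap those of *Garem2* on the opposite strand. There were 91.7, 85.8 and 94.8 *Cpt1a* counts per 100 *Hadha* counts in control and 73.5, 70.0 and 73.7 in AclyM-KO libraries, a ratio that needs no scaling between libraries.

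Electrons from the acyl-CoA dehydrogenases pass through the electron transfer flavoprotein to its ubiquinone oxidoreductase, which *Etfdh* encodes. *Etfdh* was at 41.5, 39.2 and 36.0 CPM in control and at 38.0, 40.4 and 35.9 CPM in AclyM-KO libraries, with a log2FC of -0.02 (95% interval -0.22 to 0.17, adjusted p = 0.898). The genes for the flavoprotein's own subunits are not among the 10 and are described with the rest of the pathway.

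Unsaturated acyl chains need auxiliary enzymes, among them the enoyl-CoA isomerase encoded by *Eci1* and the 2,4-dienoyl-CoA reductase encoded by *Decr1*. *Eci1* had the lowest CPM of the 10 genes, from 137, 144 and 97 reads counted in control against 148, 271 and 148 in AclyM-KO libraries. This gave 12.5, 10.8 and 8.75 CPM in control and 12.9, 10.2 and 12.9 CPM in AclyM-KO libraries, and a log2FC of 0.15 (95% interval -0.19 to 0.50, adjusted p = 0.580). In percent this interval runs from -12.4% to 41.5%, the widest of the 10 genes on the log2 scale. With each library left out, *Eci1* ranged from 0.035 to 0.28. *Decr1* was at 25.7, 32.4 and 27.2 CPM in control and at 23.2, 27.6 and 20.4 CPM in AclyM-KO libraries. AclyM-KO replicate 2 was above control replicates 1 and 3, and the other AclyM-KO libraries were below all controls. *Decr1* had a log2FC of -0.25 (SE 0.129, 95% interval -0.53 to 0.035, adjusted p = 0.247). No gene was tested for a difference from *Cpt1a*. *Decr1* is the 1 gene of the other 9 whose interval reached the point value of *Cpt1a*. It passed the threshold in 2 of 15 alternatives, without AclyM-KO replicate 2 (-0.38, adjusted p = 0.0197) and with limma-voom and sample weights (-0.36, adjusted p = 0.0325). It was at -0.14 without control replicate 2 (adjusted p = 0.626) and at -0.15 without AclyM-KO replicate 3 (adjusted p = 0.507).

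**Figure D2:**
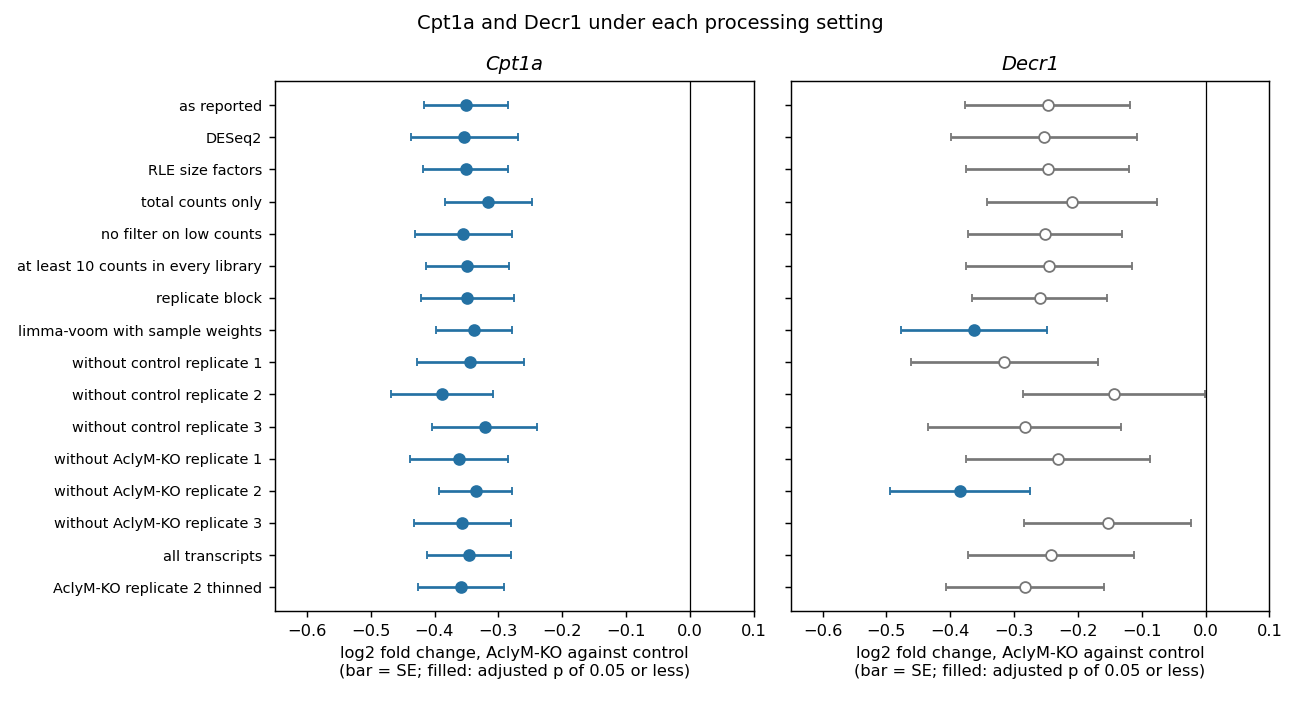
Log2FC of *Cpt1a* and *Decr1* in AclyM-KO against control, as reported and under the 15 processing alternatives, with bars for 1 SE either way and filled symbols where the adjusted p was 0.05 or less. *Cpt1a* lies between -0.39 and -0.32 and is filled in every row, and *Decr1* is filled in 2 of the alternatives.

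**Figure D3:**
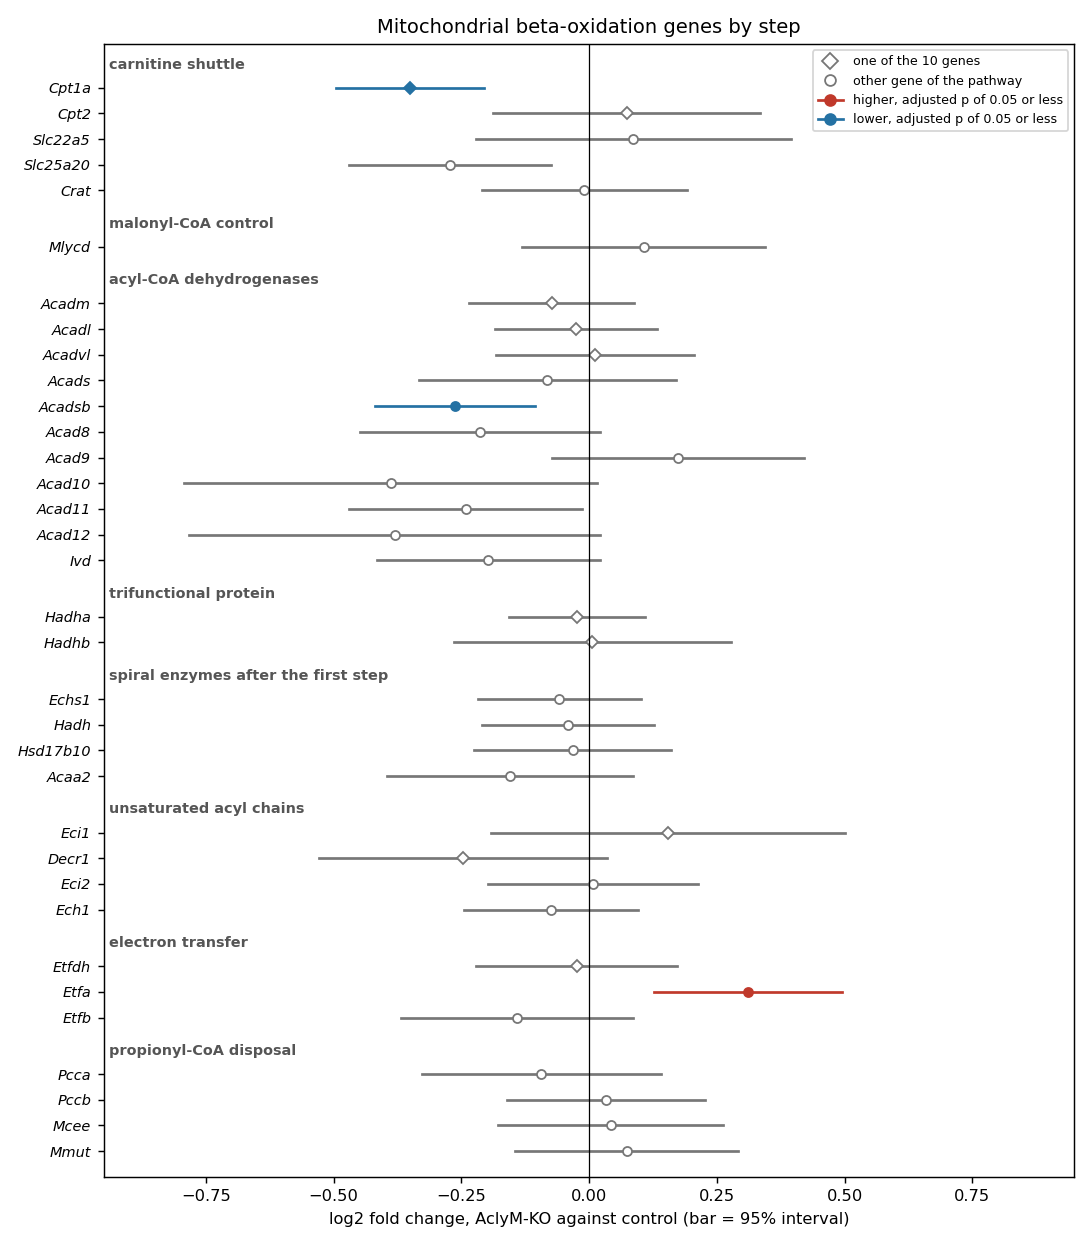
Log2FC of AclyM-KO against control for the 10 genes (diamonds) and the 24 tested genes of the rest of the mitochondrial pathway (circles), ordered by step, with bars for 95% intervals from edgeR. Filled symbols passed the adjusted p of 0.05: *Cpt1a* (-0.35) and *Acadsb* (-0.26) were lower and *Etfa* (0.31) was higher, and the remaining symbols are open.

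Levels of different genes were compared per kb of transcript. On this scale *Acadl* was highest in control, at 51.4 ± 0.335 CPM per kb, followed by *Hadha* at 43.1 ± 0.129, *Cpt1a* at 36.4 ± 1.73 and *Acadm* at 29.6 ± 1.02 CPM per kb (SD, n = 3 each). *Acadvl* (19.6 ± 1.45), *Etfdh* (16.4 ± 1.16) and *Hadhb* (13.3 ± 0.27) were intermediate, and *Decr1* (9.604 ± 1.18), *Eci1* (9.37 ± 1.63) and *Cpt2* (7.91 ± 0.277) were lowest. Over all 6 libraries, the values of *Acadl* and *Hadha*, of *Hadha* and *Cpt1a*, of *Acadm* and *Acadvl*, and of *Acadvl* and *Etfdh* did not overlap, whereas all other neighbours in this order did. *Cpt1a* and *Acadm* overlapped in AclyM-KO libraries, in which *Cpt1a* was at 28.6 ± 0.4 CPM per kb and *Acadm* was at 28.1 ± 1.11 CPM per kb (SD, n = 3 each). In the control libraries all values of *Cpt1a* (34.5 to 37.9 CPM per kb) were above those of *Acadm* (29.0 to 30.8 CPM per kb). The first 7 genes kept their order in both groups. *Cpt1a* made up 15.5%, 14.6% and 16.1% of the summed CPM per kb of the 10 genes in control and 12.8%, 12.1% and 13.2% in AclyM-KO libraries. The length used for *Hadha*, 4017 bp, is that of its matched GENCODE transcript, which extends beyond the RefSeq model on both sides, so its place in the order depends on that model.

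**Figure D4:**
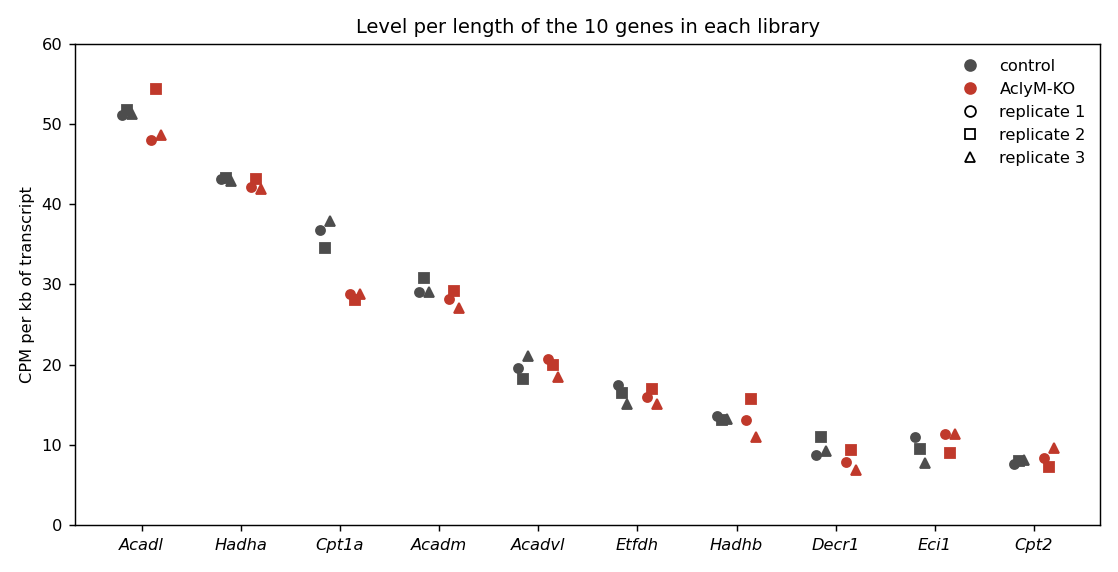
Level of the 10 genes in TMM-normalized CPM per kb of transcript, in the order of the control means, with a symbol for each library (shape, replicate number) in control (grey) and AclyM-KO (red). *Acadl* leads at 51.4 CPM per kb in control and *Cpt2* is last at 7.91 CPM per kb, and *Cpt1a* moves from 36.4 to 28.6 CPM per kb, next to *Acadm*.

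The rest of the mitochondrial pathway was read from a list of 27 genes, of which 24 were tested. Here 1 was higher (*Etfa*), 1 was lower (*Acadsb*) and 22 did not pass the threshold, which is 2 of 24 against 12.3% of all genes tested. Log2FC values were below 0 in 16 genes and above 0 in 8, with a median of -0.066. *Etfa* encodes the α subunit of the electron transfer flavoprotein, and it was at 46.3, 45.2 and 42.6 CPM in control and at 50.7, 58.5 and 56.8 CPM in AclyM-KO libraries. All AclyM-KO libraries were above all controls, with a log2FC of 0.31 (SE 0.084, adjusted p = 0.0332) and a rise of 24.0% (95% interval 9.23% to 40.9%). The call was lost in 4 of 15 alternatives, without any one of the control libraries or without AclyM-KO replicate 3, where the adjusted p was 0.0842 to 0.151 and the log2FC 0.28 to 0.33. *Etfb*, which encodes the β subunit of the same heterodimer, was at 42.9, 39.8 and 36.4 CPM in control and at 32.6, 40.4 and 34.3 CPM in AclyM-KO libraries (log2FC -0.14, adjusted p = 0.420). With each library left out, *Etfb* ranged from -0.24 to -0.086, with an adjusted p of 0.0589 at the former, without AclyM-KO replicate 2. The ratio of *Etfa* to *Etfb* CPM was 1.08, 1.14 and 1.17 in control and 1.55, 1.45 and 1.66 in AclyM-KO libraries, without overlap (two-sided exact permutation test, p = 0.1, the smallest possible).

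*Acadsb*, the short/branched-chain acyl-CoA dehydrogenase that acts mainly in isoleucine breakdown, was at 78.9, 75.3 and 72.3 CPM in control and at 61.0, 64.3 and 63.3 CPM in AclyM-KO libraries. Its log2FC was -0.26 (SE 0.072, adjusted p = 0.0343), and the call was lost in 6 of 15 alternatives, with total counts only and without any one library other than AclyM-KO replicate 2 (adjusted p = 0.0636 to 0.166). The genes for the later steps on shorter chains did not pass the threshold. *Echs1*, the short-chain hydratase, had a log2FC of -0.06 (adjusted p = 0.660), *Hadh*, the 3-hydroxyacyl-CoA dehydrogenase, of -0.04 (0.786), and *Acaa2*, the thiolase, of -0.16 (adjusted p = 0.405, and -0.26 to -0.087 with each library left out). *Acads*, the short-chain acyl-CoA dehydrogenase, was at -0.08 (adjusted p = 0.705).

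Peroxisomes shorten very-long-chain and branched fatty acids by a parallel route with its own enzymes. Of 15 genes of that route 14 were tested, with 2 lower and 0 higher, against 5.65% lower and 6.7% higher over all genes tested, and a median log2FC of -0.079. At an unadjusted p under 0.05, 3 passed, against 27.3% of all genes tested. Among them was *Abcd3*, whose AclyM-KO libraries all lay above the controls (log2FC 0.24, adjusted p = 0.0887). Without AclyM-KO replicate 3, 1 gene was higher (*Abcd3*) and 1 lower (*Abcd2*). *Abcd2*, a transporter of very-long-chain acyl-CoA into peroxisomes, was at 38.6, 36.8 and 32.7 CPM in control and at 22.2, 18.7 and 21.5 CPM in AclyM-KO libraries. It fell by 0.80 on the log2 scale (SE 0.106, adjusted p = 8.4e-04) and passed the threshold in all 15 alternatives, with no overlap between the groups. *Acox3*, an acyl-CoA oxidase for branched substrates, was at 255, 245 and 245 CPM in control and at 228, 161 and 193 CPM in AclyM-KO libraries. Its log2FC of -0.36 (adjusted p = 0.0423) moved to -0.24 without AclyM-KO replicate 2 and to -0.50 without AclyM-KO replicate 1, and the call was lost in 5 of 15 alternatives (adjusted p = 0.0524 to 0.148). Those were total counts only, each control library left out and AclyM-KO replicate 3 left out, and exons of *Acox3* overlap those of *4931431C16Rik* on the opposite strand. *Acox2* had 0 counts in every library.

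Ketone bodies are an outlet for acetyl-CoA from β-oxidation in liver. Of the genes of their synthesis and use, 4 were tested and 1, *Bdh1* (3-hydroxybutyrate dehydrogenase), was higher, against 6.7% of all genes tested. *Bdh1* was scarce, and its counts were 7, 14 and 14 in control against 23, 65 and 23 in AclyM-KO libraries. Its log2FC of 1.15 (SE 0.302, adjusted p = 0.0294) lost the call in 6 of the 14 alternatives that gave a value, namely DESeq2 and all single libraries left out other than AclyM-KO replicate 1, with adjusted p of 0.0540 to 0.135. *Bdh1* has 2 RefSeq transcripts in the table, and its exons overlap those of *Gm15743* on the opposite strand.

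Transcription of β-oxidation genes is known to respond to the fatty-acid receptors of the PPAR family and their coactivators. Of 12 listed transcription factors and coactivators, *Nrf1*, *Tfam* and *Hnf4a* included, 9 were tested. In the edgeR fit as reported 0 passed the threshold, with 1 at an unadjusted p under 0.05, against 12.3% and 27.3% of all genes tested. This was *Rxra*, the partner of the PPARs on DNA, at 136, 134 and 124 CPM in control and at 112, 67.2 and 111 CPM in AclyM-KO libraries. The groups of *Rxra* did not overlap, its log2FC was -0.45 (adjusted p = 0.0819), and it was lower past the threshold in 6 of 15 alternatives, among them DESeq2, limma-voom and the replicate block. *Ppara*, the receptor best known for driving these genes in liver, had 0 counts in 5 libraries and 1 count in AclyM-KO replicate 3, and *Ppargc1a*, its coactivator PGC-1α, was at no more than 0.0909 CPM in any library. *Ppard* had a log2FC of -0.13 (adjusted p = 0.696), with AclyM-KO replicate 2 at 26.9 CPM and the other libraries at 40.3 to 51.3 CPM. *Pparg* was at 44.1 to 47.5 CPM in control and 45.96 to 47.9 CPM in AclyM-KO libraries (0.03, adjusted p = 0.824). *Ppargc1b* (-0.28, adjusted p = 0.563) and *Esrra*, which encodes ERRα (-0.10, adjusted p = 0.603), also gave intervals that included 0, and with each library left out they ranged from -0.51 to -0.0098 and from -0.18 to -0.025.

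PPARs have known targets outside β-oxidation, and whether these follow PPAR activity in these cells was not tested. Of 11 such genes 10 were tested, 1 was higher and 1 was lower, against 12.3% of all genes tested that passed in either direction. Without AclyM-KO replicate 2, 2 were higher and 2 lower. *Cd36*, a fatty-acid and oxidized lipoprotein receptor, was at 1012, 1098 and 1130 CPM in control and at 1446, 2134 and 1560 CPM in AclyM-KO libraries (log2FC 0.67, adjusted p = 0.00489). The counts of *Angptl4*, a secreted inhibitor of lipoprotein lipase, were 24, 30 and 26 in control against 12, 27 and 12 in AclyM-KO libraries, or 2.18 to 2.35 CPM against 1.02 to 1.05 CPM. Its log2FC was -1.12 (SE 0.257, adjusted p = 0.0161), and the call was lost in 4 of 15 alternatives (DESeq2 and each control library left out, adjusted p = 0.0625 to 0.0671). *Pdk4*, the kinase that restrains pyruvate oxidation, had 1 count in AclyM-KO replicate 1 and 0 in the other libraries.

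**Figure D5:**
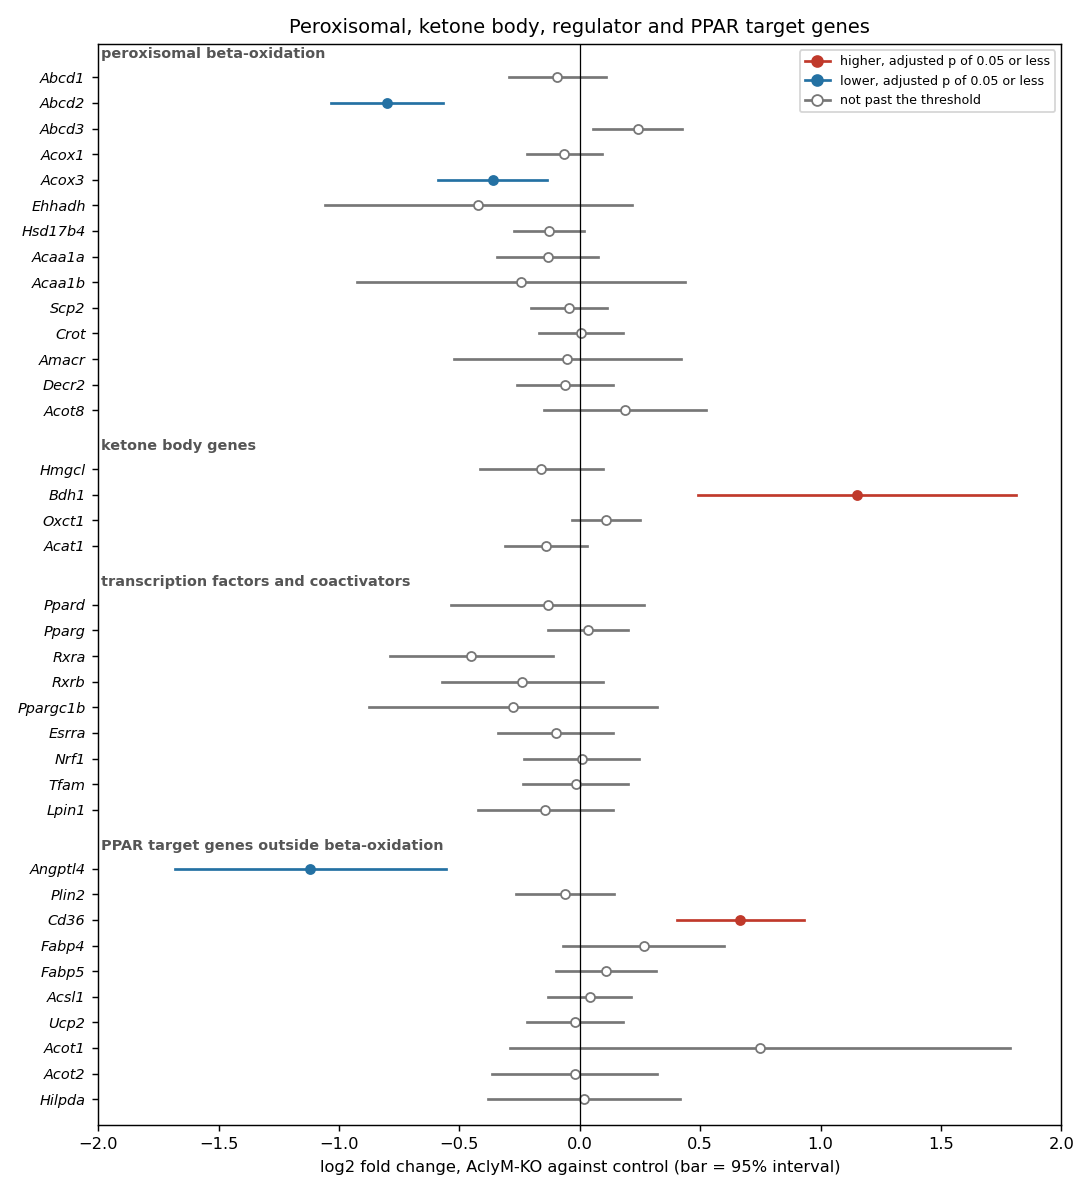
Log2FC of AclyM-KO against control, with 95% intervals from edgeR, for the tested genes of peroxisomal β-oxidation, ketone body metabolism, transcriptional regulators and PPAR targets. Filled symbols passed the adjusted p of 0.05: *Abcd2* (-0.80), *Acox3* (-0.36) and *Angptl4* (-1.12) were lower and *Bdh1* (1.15) and *Cd36* (0.67) were higher.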

How the data were processed

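The authors prepared strand-specific mRNA libraries, aligned reads to mm10 with STAR 2.5.2b and summed tags per RefSeq transcript with HOMER2. They deposited raw counts of 35745 transcripts without normalization or pooling. CASAVA 1.8.2 is named in the submitters' processing notes. Counting used the default settings of HOMER2's script, and how these treat strand was not tested here. The RefSeq release is not given in the sources used here. In the deposited table, 6 columns were assigned to the libraries by their labels, and 6 further columns were not used.

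Transcripts were matched to symbols (35440 from a RefSeq table, 188 from GENCODE M21), and the one with the highest total represented each of 24562 genes, with totals of 11120034 to 25814853 counts per library. A read on a shared exon can be counted for several transcripts. Groups were compared with edgeR 4.0.16 in R 4.3.3 (filterByExpr, TMM, quasi-likelihood test, genotype only), with Benjamini-Hochberg adjustment over 11470 genes. What edgeR calls the biological coefficient of variation was 8.90%, here a spread between libraries and not between mice. Standard errors came from the F statistic. Log2 fold changes used a prior count of 0.125. The fit was tested on simulated counts. Alternatives were DESeq2 1.42.0, RLE, total counts only, no filter, at least 10 counts in every library, replicate block, each library left out, voom with sample weights in limma 3.58.1, all transcripts, and AclyM-KO replicate 2 thinned to 11386212 counts.

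The 10 genes and all lists were chosen with earlier results of these data known, so lists are described by counts and medians only. Named are the 10 genes, the remaining steps of the spiral, regulators and up to 6 genes per list past the threshold. *Mlycd*, the weakly expressed *Cpt1b*, *Cpt1c*, *Acacb*, *Acox2* and *Pdk4*, *Rxra*, and the macrophage markers that did not pass were added after their values were seen. A result that needs a withheld item is not reported here.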

Additional observations from a re-analysis of the deposited data

How the results depend on the processing

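Across the 15 alternatives, *Cpt1a* kept its direction and its side of the threshold. The count of the 10 genes past the threshold was 1 in 13 alternatives and 2 with limma-voom, and 1 to 2 with each library left out. Their median log2 fold change was -0.066 with limma-voom and lay between -0.077 (without AclyM-KO replicate 2) and -0.0081 with each library left out. In the rest of the mitochondrial pathway, 1 gene passed with total counts only and 0 to 3 with each library left out, with 0 without any one control library or AclyM-KO replicate 3. The count over all genes was 2187 with limma-voom, 2446 over all transcripts (where a gene can be counted several times) and 598 to 2136 with each library left out, with 598, 658 and 628 without control replicates 1, 2 and 3 and 2136 without AclyM-KO replicate 2. Signs close to 0 turned, with no call: *Hadhb* was at -6.3e-04 with DESeq2, -0.0092 with the replicate block and -0.13 with limma-voom. With limma-voom, *Acadvl* was at -0.0077, *Acads* at 0.0017 and *Ppard* at 0.0085. With total counts only, *Acadl* was at 0.00996, *Hadha* at 0.012 and *Etfdh* at 0.012, where the median of all genes moved to 0.036. With each library left out, *Cpt2* ranged from -0.027 to 0.18, *Acadl* from -0.085 to 0.0017, *Acadvl* from -0.043 to 0.064, *Hadhb* from -0.14 to 0.12, *Etfdh* from -0.078 to 0.022, *Acads* from -0.16 to 0.047 and *Ppard* from -0.34 to 0.12. The cause of these moves was not tested. Replicate numbers are shared by the groups, but libraries with the same number had correlated deviations of 0.0996, 0.126 and -0.0612, so the numbers were not taken as pairs. With the replicate block, *Cpt1a* was at -0.35 (adjusted p = 0.00603), 1 of the 10 genes and 1583 genes in all passed, and control replicate 3 correlated best with AclyM-KO replicate 2. Among the 10 genes the SE was largest for *Eci1*, the gene with the fewest counts (0.159).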
